A study of Mus musculus with 6 samples.

Results

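Genes of antioxidant defence, 10 in all, were followed in the kidneys of mice with psoriasis-like skin disease and of control mice. They encode glutathione peroxidases (Gpx1, Gpx3 and Gpx4), the subunits of the enzyme that starts glutathione synthesis (Gclc and Gclm), the transcription factor NRF2 (Nfe2l2) with its targets Nqo1 and Hmox1, and superoxide dismutases (Sod1 and Sod2). The members were picked by gene name, and all 10 were among the 17550 genes of the deposited table. They were proposed when the KC-Tie2 against Control contrast of these libraries was already known, so their differences between genotypes are given as a description and no p-value is printed for them. KC-Tie2 mice overexpress the angiopoietin receptor Tie2 in their keratinocytes, under control of the Krt5 promoter, and develop skin disease that models psoriasis. The kidneys had been perfused with saline, and poly(A)-selected RNA of 3 KC-Tie2 and 3 Control samples was sequenced. The labels used here do not give the alleles of the Control mice, strain, age or sex, nor whether each sample is a separate animal, so tests measure the spread between these samples.

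Glutathione peroxidases reduce hydrogen peroxide and lipid hydroperoxides with electrons from glutathione, and superoxide dismutases make the hydrogen peroxide from superoxide. NRF2 is held low by KEAP1, which marks it for degradation. When KEAP1 is modified by oxidants, NRF2 enters the nucleus and raises genes of glutathione synthesis and detoxification, so its activity is set largely at the protein level. The kidney is the main source of the GPX3 found in plasma, which is made in the proximal tubule.

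GPX1, GPX3 and GPX4 are selenoproteins: the amino acid selenocysteine in their active site is encoded by TGA, which is otherwise a stop codon. The reading frames are shown around that codon because it is a feature the 3 peroxidases share and the choice of genes did not use. The stretches were read 5′ to 3′ from GENCODE M21 transcripts, with the TGA in capitals:
Gpx1: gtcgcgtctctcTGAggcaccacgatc
Gpx3: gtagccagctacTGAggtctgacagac
Gpx4: gtggcctcgcaaTGAggcaaaactgac
Dio1: ggcagttgcaccTGAccttcatttctt
Selenow: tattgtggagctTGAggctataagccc
The TGA is codon 47 in Gpx1 and codon 73 in both Gpx3 and Gpx4. Dio1 and Selenow, selenoprotein genes outside the 10, are shown because their transcripts rose (below). The reading frames of the paralogs Gpx6, Gpx7 and Gpx8 held no such codon.

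All 6 libraries were of like depth on the deposited scale, with summed normalized counts of 23647811 to 25495455. Between 12.8% and 14.2% of a library's sum came from mitochondrial transcripts. As a check of the tissue label, all 12 proximal tubule markers and all 16 markers of other kidney cells were in the table. Ddx3y, a gene of the Y chromosome, was at 668 to 1006 in all 6 libraries. Xist was at 98.4, 89.3 and 415 in Control and 38.2, 25.6 and 241 in KC-Tie2 replicates 1 to 3. Tek, which encodes Tie2, was at 1073, 1081 and 989 in Control and 934, 933 and 976 in KC-Tie2 replicates 1 to 3 (limma adjusted p = 0.361). Whether reads of the transgene would be counted for Tek was not tested.

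Gpx3 encodes the secreted, plasma form of the enzyme (ENSMUSG00000018339, chromosome 11, 54793279 to 54801203, build mm39, plus strand). It had 300532, 319815 and 265013 normalized counts in Control replicates 1 to 3 and 422876, 469872 and 436948 in KC-Tie2 replicates 1 to 3. Every KC-Tie2 library lay above every Control library, and the gap between the groups was wider than the range within either. The mean went from 295120 ± 27799 to 443232 ± 24120 (SD, n = 3), a 1.5-fold difference (log2 fold change 0.59 ± 0.10). Log2 fold changes here are KC-Tie2 minus Control, fitted on log2(value + 1), with ± giving the SE.

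Gpx3 was the only one of the 10 genes that passed the limma threshold of an adjusted p under 0.05, applied over all 17539 genes tested. That threshold called 0.855% of all tested genes as higher and 0.838% as lower in KC-Tie2 kidneys. A limma unadjusted p under 0.05, counted for several gene lists below, was reached by 2691 of the 17539 tested genes. Gpx3 alone supplied 1.18%, 1.32% and 1.04% of the summed counts in Control and 1.79%, 1.91% and 1.74% in KC-Tie2 replicates 1 to 3. It ranked between the sixth and the eighth most counted gene in each library. Of all tested genes, 5.67% had a larger absolute log2 fold change. The authors' deposited table gives Gpx3 a ratio of 1.5 and calls it alone among the 10 at an FDR under 0.05, a limit that 1.83% of its genes pass upward and 2.08% downward.

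Leaving out each library in turn gave Gpx3 log2 fold changes of 0.51 to 0.65. Its limma call was kept without Control replicate 2, KC-Tie2 replicate 1 or KC-Tie2 replicate 3, and lost without Control replicate 1 (0.61), Control replicate 3 (0.51) or KC-Tie2 replicate 2 (0.55). Quantile normalization gives a gene its value by rank and reduced the difference to 0.27, with the call lost. Markers of kidney cells differed beside Gpx3. The 12 proximal tubule markers summed to 432308 to 462491 in Control and 360809 to 420598 in KC-Tie2 libraries, without overlap. Much of this sum came from Lrp2 and Slc34a1, neither of them called (limma adjusted p = 0.337 and 0.224). Of the 12 markers 9 were below 0 (median log2 fold change -0.21). Limma gave 7 of them an unadjusted p under 0.05 and called 1, the urate transporter gene Slc22a12, which fell (log2 fold change -0.57 ± 0.10, limma adjusted p = 0.0228). That call was lost without Control replicate 1 or 3 and without KC-Tie2 replicate 1 or 2. At an FDR under 0.05 the authors' deposited table also has Slc22a6 (ratio 0.771) and Slc22a8 (0.773) lower and Slc5a12 (1.22) higher. The 16 markers of other kidney cells summed to 142036 to 146336 in Control and 147952 to 185131 in KC-Tie2 libraries. Much of this sum was Umod, at 60187.7 to 64015.5 in Control and 62793.5 to 81133.8 in KC-Tie2 libraries, with overlapping groups. Of the 16 markers 13 were above 0 (median log2 fold change 0.24, 8 at a limma unadjusted p under 0.05, none called by limma). Genes of that list that pass as higher in the authors' deposited table include Slc12a1 (ratio 1.27) and Scnn1g (1.4). The part of these cells in the Gpx3 difference was not tested, and fewer cells of a type and less RNA per cell cannot be told apart in whole kidney. The protein-coding genes whose log2 values were most like those of Gpx3 were Dcbld2 (Pearson r = 0.997 over the 6 libraries), Zfp456 (0.996) and Tmem213 (0.993). These correlations are a description of 6 points that share the genotype difference, and 6 protein-coding genes had r over 0.99.

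**Figure D1:**
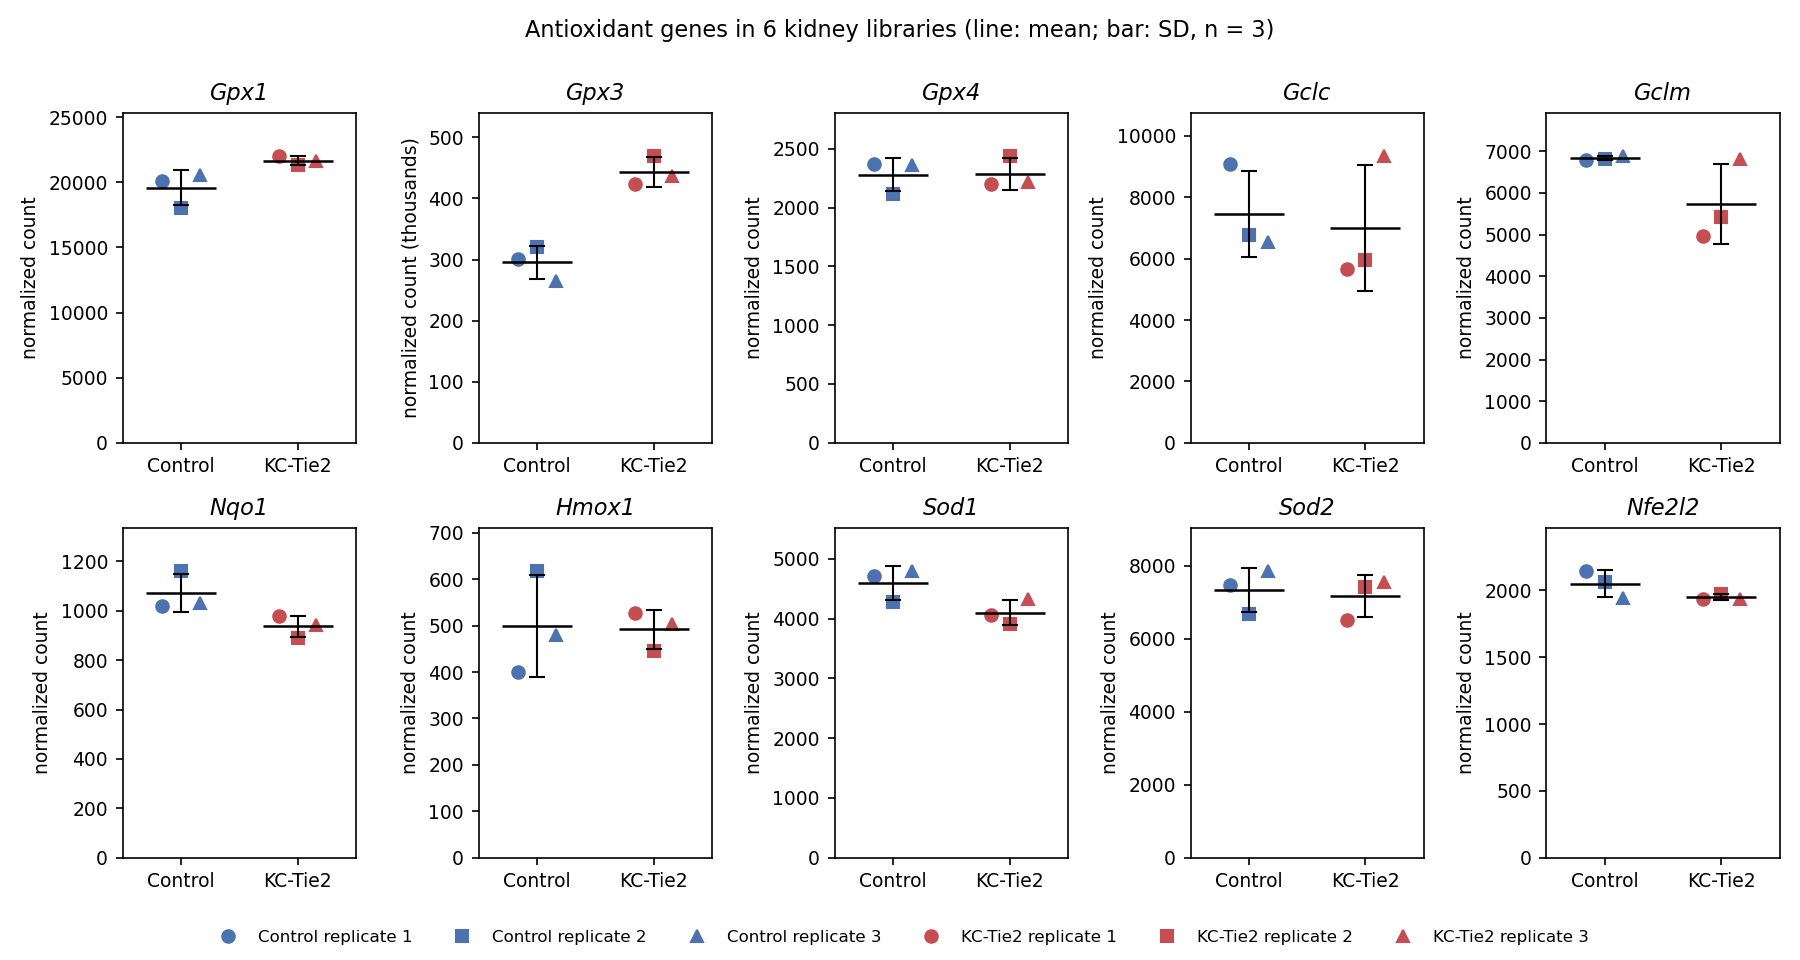
Normalized counts of the 10 genes in each library (vertical axes from 0, that of Gpx3 on the coarser scale its label gives), Control in blue and KC-Tie2 in red, with the marker shape giving the replicate number, a line at the mean and a bar for the SD (n = 3). Gpx3 shows the widest separation, from 265013 to 319815 in Control and from 422876 to 469872 in KC-Tie2, while the groups overlap at 7 of the 10 genes.

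Gpx1, the cytosolic peroxidase present in most cells (ENSMUSG00000063856, chromosome 9, 108216102 to 108217542, plus strand), had 20082, 18042 and 20578 normalized counts in Control and 22040, 21329 and 21656 in KC-Tie2 replicates 1 to 3. The groups did not overlap, but the gap was small, 20578 against 21329 at its edges, and the gene was not called. Its log2 fold change was 0.15 ± 0.08, and 44.2% of all tested genes had a larger absolute value. Quantile normalization gave 0.27, still not called. KC-Tie2 libraries lay entirely above Control at 2 of the 10 genes, Gpx3 and Gpx1, and at 9.96% of all tested genes. They lay entirely below at 1, Nqo1, and at 10% of all tested genes. These 3 of 10 without overlap stand beside 20% of all tested genes. Red blood cells also contain Gpx1: haemoglobin genes summed to 1837, 2155 and 1422 in Control and 4956, 919 and 3926 in KC-Tie2 replicates 1 to 3. Their part in the Gpx1 difference was not tested.

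Gpx4 encodes the peroxidase that reduces lipid hydroperoxides in membranes and guards against ferroptosis (ENSMUSG00000075706, chromosome 10, 79883000 to 79892273, plus strand). Its normalized counts were 2371, 2115 and 2359 in Control and 2202, 2441 and 2216 in KC-Tie2 replicates 1 to 3. The groups covered nearly the same range, with a log2 fold change of 0.00 ± 0.07. The level of Gpx4 itself is uncertain, because the table also lists the transcribed pseudogene Gpx4-ps2 at 6497 to 7405 in Control and 6447 to 6899 in KC-Tie2 libraries. Gpx4-ps2 and Gpx4 transcripts share an identical stretch of 314 bases in GENCODE M21, and Gpx4-ps1 and Gpx4 share 117. Summed over the 3 genes the counts were 9507, 8660 and 9850 in Control and 8725, 9118 and 9157 in KC-Tie2 replicates 1 to 3, of which 24.0% to 26.8% were assigned to Gpx4. The sum had a log2 fold change of -0.05 ± 0.07, and was not called either. The log2 fold change of Gpx4 alone ran from -0.05 to 0.03 over the fits that left out 1 library.

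Of the 5 other glutathione peroxidase genes, Gpx6, Gpx7 and Gpx8 were in the table, and none was called by limma (median log2 fold change 0.36, 1 of 3 at an unadjusted p under 0.05; the median of all tested genes was 0.00). Gpx6, the closest relative of Gpx3 among them, had 721, 624 and 656 normalized counts in Control and 852, 920 and 788 in KC-Tie2 replicates 1 to 3. Its groups did not overlap (log2 fold change 0.36 ± 0.09, limma adjusted p = 0.0684), and it was called without KC-Tie2 replicate 3 (0.41). In the authors' deposited table Gpx6 has a ratio of 1.28 and an FDR of 0.0401. The longest identical stretch between Gpx3 and Gpx6 transcripts was 32 bases. Gpx7, at 12.2 to 36.6 over the 6 libraries, had a log2 fold change of 0.38 ± 0.41 (limma adjusted p = 0.737).

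Glutamate-cysteine ligase joins glutamate to cysteine, the rate-limiting step of glutathione synthesis. Its catalytic subunit Gclc (ENSMUSG00000032350, chromosome 9, 77661817 to 77701767, plus strand) had 9072, 6771 and 6543 normalized counts in Control and 5679, 5961 and 9353 in KC-Tie2 replicates 1 to 3. One library in each genotype, Control replicate 1 and KC-Tie2 replicate 3, was well above the other libraries of its group. Its coefficient of variation in KC-Tie2, 29.2%, was the largest of the 10 genes, and that in Control, 18.7%, was below only the 22.1% of Hmox1. The log2 fold change was -0.11 ± 0.24, and it turned to 0.03 without Control replicate 1 and to 0.02 without KC-Tie2 replicate 1, and reached -0.34 without KC-Tie2 replicate 3.

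The modifier subunit Gclm, which raises the affinity of the ligase for glutamate (ENSMUSG00000028124, chromosome 3, 122039206 to 122064381, plus strand), was at 6801, 6807 and 6894 in Control and 4962, 5415 and 6817 in KC-Tie2 replicates 1 to 3. The coefficient of variation in Control, 0.759%, was the smallest of the 10 genes. KC-Tie2 replicates 1 and 2 were below all of them and replicate 3 lay within their range. The mean was 6834 ± 52 in Control and 5732 ± 967 in KC-Tie2 (log2 fold change -0.27 ± 0.10, not called). Without KC-Tie2 replicate 3 the log2 fold change was -0.40 ± 0.08 and Gclm was called, in a fit that called 1.77% of all tested genes as higher and 2.12% as lower. KC-Tie2 replicate 3 was thus the highest of its group for both subunits. The ratio of Gclc to Gclm counts was 1.33, 0.995 and 0.949 in Control and 1.14, 1.10 and 1.37 in KC-Tie2 replicates 1 to 3, and was highest in the pair of libraries with high Gclc. Gclm overlaps Gm17494 on the opposite strand (535 to 624 over the 6 libraries) and Gm6061 on the same strand (1.81 to 41.8), so reads in the overlap may be assigned to either gene.

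**Figure D2:**
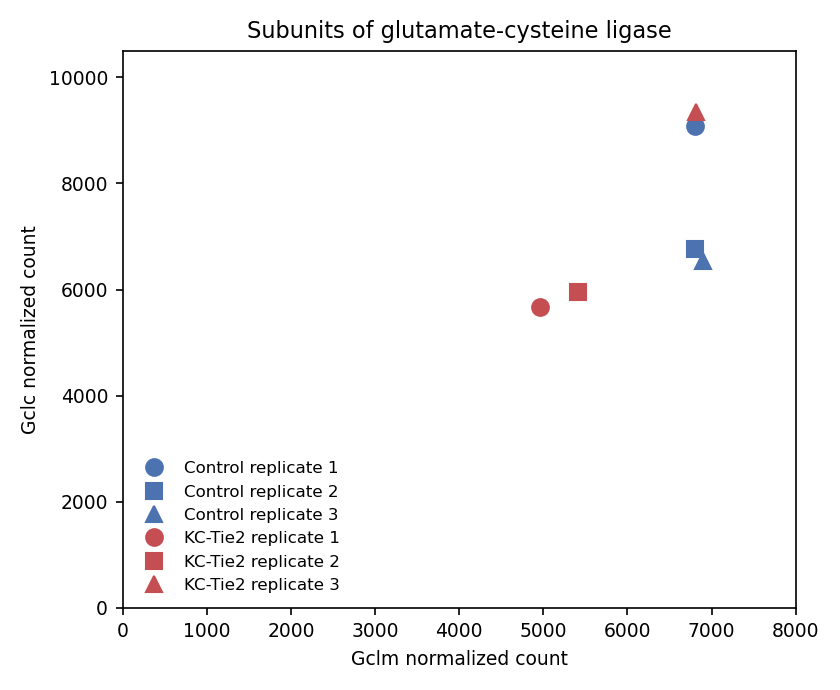
Normalized counts of Gclc (vertical axis) against Gclm (horizontal axis), both from 0, 1 point per library, Control in blue and KC-Tie2 in red. Control replicate 1 and KC-Tie2 replicate 3 sit together at the top right (9072 and 9353 for Gclc), and KC-Tie2 replicates 1 and 2 have the lowest values of both genes.

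Nfe2l2, which encodes NRF2 (ENSMUSG00000015839, chromosome 2, 75505857 to 75534985, minus strand), had 2148, 2061 and 1947 normalized counts in Control and 1940, 1975 and 1938 in KC-Tie2 replicates 1 to 3. The KC-Tie2 values lay close together at the lower edge of the Control range (log2 fold change -0.07 ± 0.06, not called). The KC-Tie2 coefficient of variation, 1.06%, was the lowest of the 10 genes in that genotype. The partner and regulator list of 17 genes, all of them tested, had none called (median log2 fold change -0.04). Limma gave 6 of them an unadjusted p under 0.05, where 2691 of all 17539 tested genes had one. Keap1, whose product marks NRF2 for degradation, was at 876, 921 and 882 in Control and 918, 894 and 892 in KC-Tie2 replicates 1 to 3 (log2 fold change 0.01 ± 0.07, limma adjusted p = 0.954). Bach1, a repressor that competes with NRF2 for its binding sites, had 1217, 1188 and 1265 in Control and 1248, 1220 and 1265 in KC-Tie2 replicates 1 to 3. These values of Keap1 and Bach1 were among the steadiest given here. Bach2 (log2 fold change -0.44 ± 0.14, limma adjusted p = 0.151) and Sqstm1, whose product p62 sequesters KEAP1 (log2 fold change -0.20 ± 0.07, limma adjusted p = 0.193), had the smallest p-values of the list. Bach2 was called without KC-Tie2 replicate 3 (-0.59).

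Nqo1 encodes a quinone reductase and is a standard readout of NRF2 activity (ENSMUSG00000003849, chromosome 8, 108114857 to 108129838, minus strand). It was at 1020.1, 1163 and 1034 in Control and 978, 891 and 941 in KC-Tie2 replicates 1 to 3. All KC-Tie2 libraries were below all Control libraries, by a margin of 978 against 1020.1 at the edges (log2 fold change -0.19 ± 0.08, not called). Hmox1, the inducible haem oxygenase that breaks haem down to biliverdin, iron and carbon monoxide (ENSMUSG00000005413, chromosome 8, 75820249 to 75827217, plus strand), was at 400.2, 619 and 479 in Control and 526, 446 and 504 in KC-Tie2 replicates 1 to 3. The Control libraries enclosed the KC-Tie2 libraries, and the log2 fold change was -0.00 ± 0.15. It moved to -0.15 without Control replicate 1 and to 0.16 without Control replicate 2. The macrophage list, a cell type rich in Hmox1, had 13 of 14 markers in the table, with summed counts of 4026 to 4398 in Control and 4314 to 4970 in KC-Tie2 libraries. Of the 13 markers 11 were above 0 (median log2 fold change 0.66). Limma gave 9 an unadjusted p under 0.05, where 2691 of all 17539 tested genes had one. At 7 every KC-Tie2 library was above every Control library, as at 9.96% of all tested genes. By limma 3 rose, the complement genes C1qa, C1qb and C1qc, and the authors' deposited table also has Lyz2 (ratio 1.58) and Cx3cr1 (1.94) higher. Adgre1 (60.9 to 137 in Control, 113 to 147 in KC-Tie2) and Csf1r (1074 to 1561 and 1275 to 1457) had overlapping groups. The part of macrophages in the Hmox1 level was not tested.

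Haem breakdown genes other than Hmox1 were all tested, and none of the 9 was called (median log2 fold change -0.04, limma unadjusted p under 0.05 at 1). Hmox2, the constitutive haem oxygenase, was at 1096, 982 and 984 in Control and 969, 1047 and 1004 in KC-Tie2 replicates 1 to 3. Its groups overlapped (log2 fold change -0.02 ± 0.07, limma adjusted p = 0.939). The haem and drug exporter gene Abcg2 had a log2 fold change of -0.24 ± 0.09 (limma adjusted p = 0.222) and the haem transporter gene Slc48a1 one of -0.15 ± 0.07 (limma adjusted p = 0.330).

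Of 34 other NRF2 target genes 31 were tested, of which by limma 1 rose and 1 fell, with 14 above and 17 below 0 and a median log2 fold change of -0.03. Cbr1, a carbonyl reductase, rose, with 694 ± 108 in Control and 1015 ± 99.5 in KC-Tie2 (SD, n = 3; log2 fold change 0.55 ± 0.12, limma adjusted p = 0.0465). Me1, the cytosolic malic enzyme, which supplies NADPH, fell, with 8792 ± 653 in Control and 6234 ± 983 in KC-Tie2 (SD, n = 3; log2 fold change -0.50 ± 0.11, limma adjusted p = 0.0435). Both had groups that did not overlap. The authors' deposited table has 2 further genes of this list lower at an FDR under 0.05, the peroxiredoxin gene Prdx1 (ratio 0.78, FDR 0.0246) and the exporter gene Abcc2 (ratio 0.827, FDR 0.0334), named here after their values were seen. The call of Cbr1 was lost without every library except Control replicate 2, and that of Me1 without Control replicate 1 or 3 or KC-Tie2 replicate 1 or 2. Further targets were fixed for naming whatever their values. Txnrd1, thioredoxin reductase, had 3611, 3708 and 3409 in Control and 3251, 3489 and 3676 in KC-Tie2 replicates 1 to 3 (log2 fold change -0.04 ± 0.07, limma adjusted p = 0.838). Srxn1, sulfiredoxin, which repairs over-oxidized peroxiredoxins, had 1260, 1432 and 1214 in Control and 1378, 1461 and 1560 in KC-Tie2 replicates 1 to 3 (log2 fold change 0.17 ± 0.08, limma adjusted p = 0.331).

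Promoters of the 10 members were searched for the core of the antioxidant response element, the site NRF2 binds. The RefSeq promoter table (build GRCm38.p6, 250 bases before to 50 after the start site) held 8 of the 10 members, with 11 promoters, and not Gclc and Hmox1. The letters TGACNNNGC on either strand occurred in 12.4% of all 32851 promoters and in those of 14% of all genes with one. They occurred in 3 of the 8 members, which are shown because they are the places where these letters stand. Motif letters are in capitals with flanks in lower case, in the direction of the gene:
Gclm: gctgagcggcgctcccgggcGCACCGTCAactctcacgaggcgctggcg
Sod1: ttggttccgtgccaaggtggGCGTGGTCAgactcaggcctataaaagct
Nfe2l2: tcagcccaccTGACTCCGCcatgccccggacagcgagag
They lie at chr3:122245403-122245451 (plus strand), chr16:90220686-90220734 (plus strand) and chr2:75704875-75704913 (minus strand) of that build, with the motif starting 134, 56 and 240 bases before the start site. The AP-1 letters TGACTCA, which overlap the element in part, were in none of the 11 promoters and in 5.2% of all. The Gpx3, Gpx1, Gpx4, Nqo1 and Sod2 promoters did not hold TGACNNNGC in this window. None of the 3 genes with the letters was called.

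Sod1, the copper-zinc superoxide dismutase of the cytosol (ENSMUSG00000022982, chromosome 16, 90017642 to 90023217, plus strand), was at 4712, 4282 and 4805 in Control and 4060, 3912 and 4325 in KC-Tie2 replicates 1 to 3. Control replicate 2 and KC-Tie2 replicate 3 overlapped by a small margin, 4282 against 4325, and the other KC-Tie2 libraries were lower than all Control libraries (log2 fold change -0.17 ± 0.07, not called). Sod1 overlaps Scaf4 on the opposite strand (1048 to 1120 over the 6 libraries), and whether the counting used strand is not stated in any source used. Sod2, the manganese enzyme of mitochondria (ENSMUSG00000006818, chromosome 17, 13225733 to 13258950, plus strand), was at 7485, 6681 and 7872 in Control and 6512, 7423 and 7571 in KC-Tie2 replicates 1 to 3. The groups overlapped over most of their range (log2 fold change -0.04 ± 0.09, not called, and 0.05 with quantile normalization). Sod3, the extracellular form, also had overlapping groups, at 8692, 8166 and 9746 in Control and 7857, 8714 and 9233 in KC-Tie2 replicates 1 to 3 (log2 fold change -0.04 ± 0.09, limma adjusted p = 0.874).

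**Figure D3:**
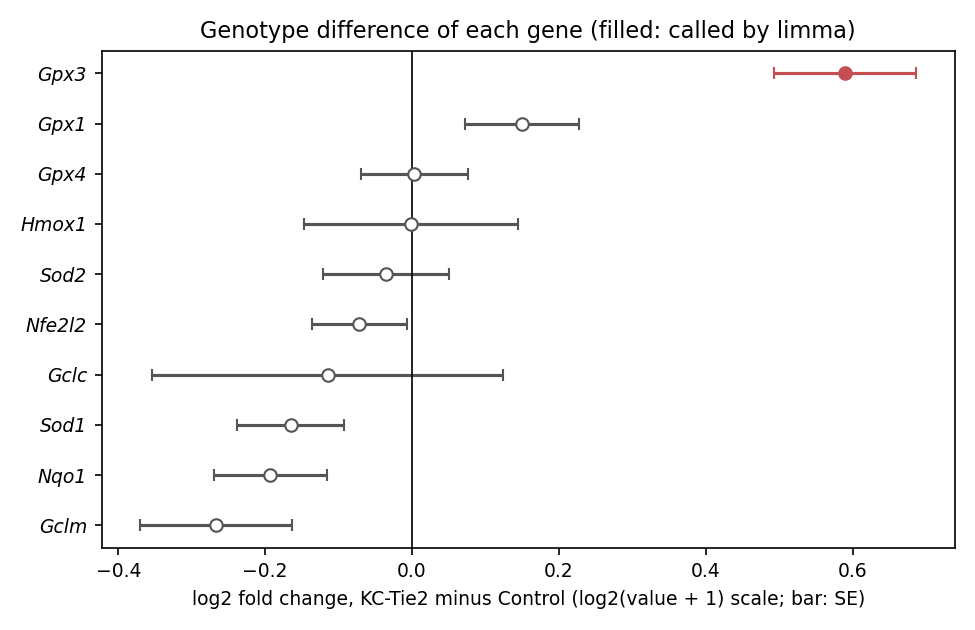
Log2 fold change of each of the 10 genes (horizontal axis, KC-Tie2 minus Control on the log2(value + 1) scale) with bars for the SE, filled where limma called the gene. Gpx3 stands at 0.59, the other 9 lie between -0.27 and 0.15 with open markers, and 3 of the 10 are above 0.

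Across the 10 genes 3 were above and 7 below 0, with a median log2 fold change of -0.05 against 0.00 over all tested genes, and 9 were not called. Members were not alike in which KC-Tie2 library lay closest to Control. It was replicate 3 for 4 genes, Gpx4, Gclm, Hmox1 and Sod1, replicate 2 for 4, Gpx1, Gclc, Sod2 and Nfe2l2, and replicate 1 for Gpx3 and Nqo1.

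Levels between genes were compared per kb of the longest principal transcript in GENCODE M21, as mean ± SD of the 3 Control libraries. Gpx3 was highest at 185144 ± 17440 normalized counts per kb, followed by Gpx1 at 18253 ± 1254 and Sod1 at 7175 ± 435. Then came Gpx4 at 2379 ± 150 and Gclc at 2180 ± 409 per kb, which did not differ beyond their spread. Sod2 at 1253 ± 104 and Gclm at 1223 ± 9.28 per kb were likewise within their spread. Nfe2l2 at 829 ± 40.8, Nqo1 at 690.4 ± 50.7 and Hmox1 at 318 ± 70.5 per kb were the lowest. In KC-Tie2 kidneys the order was the same, with Gpx3 at 278063 ± 15132 and Gpx1 at 20219 ± 332 per kb. The order between Gpx1 and Hmox1 depends on the length used. Per kb of all annotated exons Sod1 drops from 7175 to 1159, below Gclc (1981) and Gpx4 (1323). On that length Sod2 (734) is below Gclm (1086), and Nfe2l2 (541) is below Nqo1 (690.4). With its pseudogenes counted in, Gpx4 would be at 9738 ± 638 per kb of its principal transcript, above the 7175 of Sod1.

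Genes around the 10 were read from 9 lists, of which 143 genes were tested. These lists were drawn up with earlier results of these libraries known. Of the 143, 3 rose and 4 fell (4.9%, where 1.69% of all tested genes were called), with a median log2 fold change of -0.04. The authors' deposited table has 7 of the 143 higher and 8 lower at an FDR under 0.05, where 3.91% of all its genes pass.

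**Figure D4:**
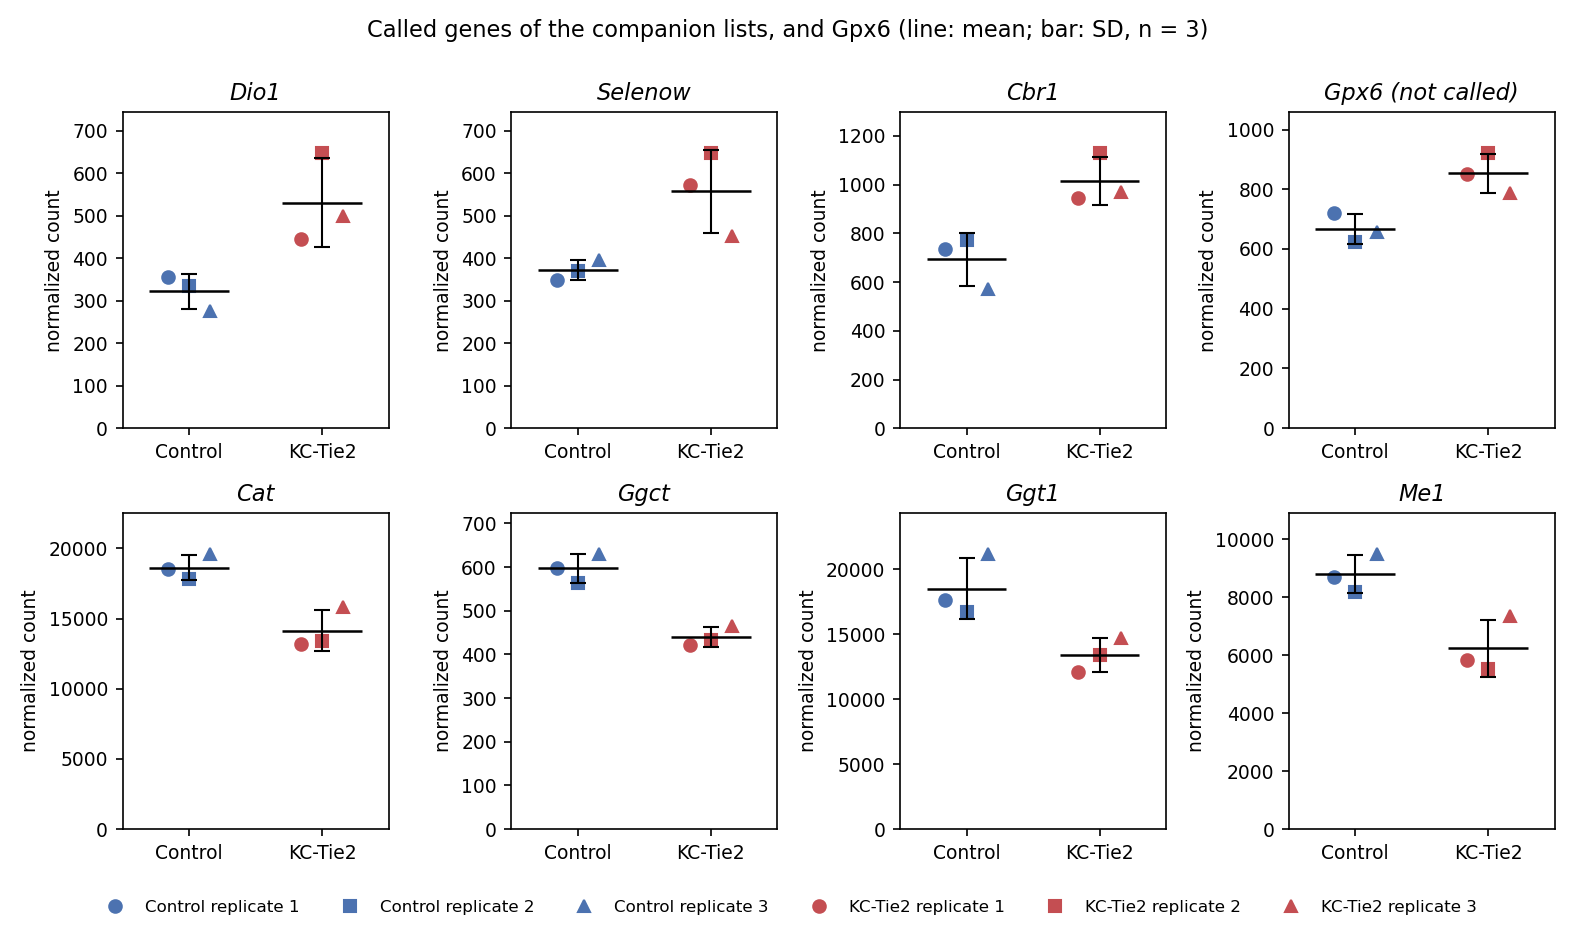
Normalized counts (vertical axes from 0) of the 7 called genes of the lists and of Gpx6 in each library, Control in blue and KC-Tie2 in red, marker shape by replicate number, line at the mean and bar for the SD (n = 3). Dio1, Selenow and Cbr1 are higher and Cat, Me1 and the glutathione breakdown genes lower in every KC-Tie2 library than in any Control library.

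Among selenoproteins and the genes that insert selenocysteine, 28 of 30 were tested, 2 rose and none fell, although 19 of the 28 were below 0 (median log2 fold change -0.09, limma unadjusted p under 0.05 at 7). Dio1, the deiodinase that converts thyroxine to active thyroid hormone, had 356, 334 and 276 normalized counts in Control and 446, 647 and 499.9 in KC-Tie2 replicates 1 to 3 (log2 fold change 0.71 ± 0.14, limma adjusted p = 0.0391). Selenow, a small selenoprotein, had 349, 371 and 396 in Control and 572, 647 and 453 in KC-Tie2 replicates 1 to 3 (log2 fold change 0.57 ± 0.12, limma adjusted p = 0.0461). Both were higher in all 3 KC-Tie2 libraries than in any Control library. The call of Dio1 was kept without KC-Tie2 replicate 1 or 3, and that of Selenow without KC-Tie2 replicate 3. Each was lost when any of the other libraries was left out. Selenop, which carries selenium to tissues, had 37884, 31934 and 45914 in Control and 27321, 29148 and 34497 in KC-Tie2 replicates 1 to 3 (log2 fold change -0.34 ± 0.14, limma adjusted p = 0.275). Its groups overlapped, through Control replicate 2. Lrp2, which encodes megalin, the receptor through which proximal tubule cells take up selenoprotein P, was at 157198 to 168263 in Control and 127971 to 156002 in KC-Tie2 libraries (limma adjusted p = 0.337).

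In glutathione synthesis, recycling and breakdown, 18 of 21 genes were tested, none rose and 2 fell (median log2 fold change -0.02, limma unadjusted p under 0.05 at 6). Both fallen genes act in the gamma-glutamyl part of glutathione turnover. Ggt1, the brush border enzyme that cleaves extracellular glutathione, was at 17620.1, 16713 and 21134 in Control and 12072, 13368 and 14706 in KC-Tie2 replicates 1 to 3 (log2 fold change -0.46 ± 0.10, limma adjusted p = 0.0473). Ggct, gamma-glutamylcyclotransferase, was at 598, 564 and 629 in Control and 421, 433 and 465 in KC-Tie2 replicates 1 to 3 (log2 fold change -0.44 ± 0.09, limma adjusted p = 0.0300). Both calls were lost without Control replicate 1 or 3 and without KC-Tie2 replicate 1 or 2. The fall of Ggt1 stood beside the lower proximal tubule sum given above, and the part of that sum was not tested. Gss, which completes glutathione, was at 5257, 5395 and 5973 in Control and 4349, 4517 and 5424 in KC-Tie2 replicates 1 to 3 (log2 fold change -0.22 ± 0.09, limma adjusted p = 0.265). Gsr, which regenerates reduced glutathione, had overlapping groups (3286 ± 376 and 3205 ± 328, limma adjusted p = 0.911). Slc7a11, the cystine importer, was not among the genes of the deposited table and so could not be tested.

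Among 25 other genes that remove or buffer superoxide and peroxide, all tested, by limma none rose and 1 fell, with 9 above and 16 below 0 (median log2 fold change -0.04, limma unadjusted p under 0.05 at 8). The gene called by limma was Cat, catalase, the peroxisomal enzyme that splits hydrogen peroxide without glutathione. It was at 18518, 17806 and 19586 in Control and 13215, 13403 and 15822 in KC-Tie2 replicates 1 to 3. Every KC-Tie2 library was lower than every Control library, by 1.32-fold in the fit (log2 fold change -0.40 ± 0.09, limma adjusted p = 0.0437). Gpx3 and Cat, both of which remove hydrogen peroxide, thus differed in opposite directions. The call of Cat was lost without the same 4 libraries as those of Ggt1 and Ggct. Besides Cat, the authors' deposited table passes 4 genes of this list at an FDR under 0.05, named here after their values were seen. It has the metallothionein gene Mt1 higher (ratio 1.45, FDR 0.00112) and lower values for Prdx1 (above), the thioredoxin inhibitor gene Txnip (ratio 0.607, FDR 4.09e-05) and the sestrin gene Sesn2 (ratio 0.625, FDR 0.000105). Limma gave them adjusted p-values of 0.0600 for Mt1, 0.143 for Txnip, 0.0982 for Sesn2 and 0.117 for Prdx1.

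The lists on the production of oxidants and on lipid peroxidation had no gene called by limma. Of 16 sources of superoxide and peroxide 12 were tested (median log2 fold change -0.03, limma unadjusted p under 0.05 at 5). Cybb, the NADPH oxidase subunit of phagocytes, was at 133, 139 and 142 in Control and 191, 257 and 181 in KC-Tie2 replicates 1 to 3, without overlap (log2 fold change 0.58 ± 0.15, limma adjusted p = 0.0910). Cybb has, in the authors' deposited table, a ratio of 1.52 and an FDR of 0.0479. Beside it the neutrophil list had 3 of 11 markers in the table, with summed counts of 8.40 to 17.3 in Control and 58.1 to 145 in KC-Tie2 libraries. All 3 were called higher by limma (Csf3r, S100a8 and S100a9). The lowest per-gene maximum in the deposited table was 24.78, above the summed Control counts of these 3 markers. Each could thus enter the table only through a KC-Tie2 library, so their rise was in part fixed by which genes were listed. Their part in the Cybb level was not tested. Nox4, the main NADPH oxidase of tubule cells, was at 7996, 6402 and 6577 in Control and 5496, 6249 and 6282 in KC-Tie2 replicates 1 to 3 (log2 fold change -0.21 ± 0.09, limma adjusted p = 0.308). Hao2, a peroxisomal oxidase that releases hydrogen peroxide, had a log2 fold change of 0.44 ± 0.13 (limma adjusted p = 0.162), and in the authors' deposited table a ratio of 1.36 with an FDR of 0.0127. Of 15 genes of lipid peroxidation and ferroptosis 12 were tested (median log2 fold change -0.03, limma unadjusted p under 0.05 at 2), and the smallest p-values were those of Por (log2 fold change -0.22 ± 0.09, limma adjusted p = 0.264) and Vkorc1l1 (-0.18 ± 0.08, limma adjusted p = 0.291).

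Tubule injury markers, 6 of 7 in the table, summed to 14186 to 18820 in Control and 41011 to 86530 in KC-Tie2 libraries. All 6 were above 0 (median log2 fold change 0.71), limma gave 3 an unadjusted p under 0.05 and called none. Most of the sum was Spp1, which encodes osteopontin and is named after its values were seen, at 12659, 13480 and 10149 in Control and 58913, 81324 and 35940 in KC-Tie2 replicates 1 to 3. Its groups did not overlap (log2 fold change 2.21 ± 0.34, limma adjusted p = 0.0681), and its ratio in the authors' deposited table is 4.85 (FDR 1.49e-08). Havcr1, which encodes KIM-1, was at 19.96, 25.6 and 27.1 in Control and 42.2, 128 and 18.1 in KC-Tie2 replicates 1 to 3 (limma adjusted p = 0.560). Lcn2, which encodes NGAL, was at 37.8, 66.9 and 31.1 in Control and 125, 163 and 66.2 in KC-Tie2 replicates 1 to 3 (limma adjusted p = 0.134), and its ratio in the authors' deposited table is 2.57 (FDR 0.00593). By limma its call was gained by leaving out either Control replicate 2 or KC-Tie2 replicate 3. KC-Tie2 replicate 3 had the lowest value of its group for these 3 injury genes and the highest for Gclc and Gclm. The part of injury in the antioxidant genes was not tested.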

How the data were processed

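The deposited table of normalized counts is a signal on the scale the authors deposited it in; how it was normalized is not stated. The submitters' processing notes list STAR, DESeq2, Partek 12.5.0 and the mm39 build, without saying what each was used for. From the authors' deposited comparison, whose reference group is headed WT, each gene's p-value, FDR, ratio and signed fold change (a score) were read and not recomputed. Columns were matched to samples by library name. The end of a gene is 1 base before the listed stop, as checked on 15 mitochondrial genes.

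Values were taken as log2(value + 1). A mean of 10 or more across the libraries was required, which left 17539 genes with all 10 members among them. The fit was made by limma 3.58.1 under R 4.3.3 (eBayes with trend and robust, genotype only), two-sided, with Benjamini-Hochberg adjustment over all of them. Every adjusted p comes from that fit. The script was tested on simulated data. Whole reads were not recovered, so no count model was used. The members and lists were chosen with earlier results of these data known. From each of the 9 lists up to 4 called genes with the largest difference were named, or, in lists without a call, the 2 of lowest p, plus Keap1, Bach1, Gss, Gsr, Slc7a11, Txnrd1, Srxn1, Cat, Sod3, Hmox2, Selenop, Nox4, Tek, Xist, Ddx3y, Havcr1 and Lcn2. Gpx4-ps1, Gpx4-ps2, Gm6061, Gm17494 and Scaf4 were named after their values were seen. Sequences and lengths came from GENCODE M21 and RefSeq (GRCm38), and no coordinate was moved between builds. Alternatives were 2 other pseudocounts, 2 other filters, median-of-ratios and quantile scaling, the replicate block, eBayes without robust or without trend, library weights and each library left out; the sum of Gpx4 with its pseudogenes was added after seeing the data.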

Additional observations from a re-analysis of the deposited data

How the results depend on the processing

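Genes called over the whole table numbered 297, with 581 under the replicate block, 7 with eBayes without trend, 549 with library weights, and 48 to 682 with 1 library left out. Median-of-ratios scaling left the number at 297 and Gpx3 at 0.590, so the deposited values were already close to that scale. Of the 10 members 1 was called (Gpx3), and 0 with quantile normalization, eBayes without robust or eBayes without trend. In that order, limma gave 3, 4 and 1 members an unadjusted p under 0.05 in those fits. Over all 17539 tested genes the same fits gave 2807, 2701 and 2344. With 1 library left out 0 to 2 members were called, the second being Gclm without KC-Tie2 replicate 3. Of the lists' 143 genes 7 were called, 10 under the replicate block, 3 at a mean of at least 100, 1 with eBayes without robust, 0 with eBayes without trend (26 at an unadjusted p under 0.05), 11 with library weights, and 0 to 12 with 1 library left out. Among 42 single genes and 670 recomputed values, 53 lost and 10 gained a call. Only Gpx3 and the 7 called genes of the lists could lose one, so the 53 are not to be read against all 670. With eBayes without trend each of these called genes lost its call. Uncalled members turned sign in 3 of 17 alternatives for Gpx4 (-0.052 to 0.032), and of 16 in 2 for Gclc (-0.343 to 0.034), 3 for Hmox1 (-0.149 to 0.164) and 3 for Sod2 (-0.102 to 0.046). Among the other uncalled genes named, 11 values turned sign. Their log2 fold changes with 1 library left out were, for Keap1 (-0.000 to 0.035; below 0 without replicate 1 of Control or of KC-Tie2), Hmox2 (-0.048 to 0.034; above 0 without the same libraries), Txnrd1 (-0.086 to 0.003; above 0 without KC-Tie2 replicate 1), Gsr (-0.132 to 0.047; above 0 without Control replicate 2 or KC-Tie2 replicate 1, and 0.020 with library weights) and Sod3 (-0.101 to 0.027; above 0 without Control replicate 3 or KC-Tie2 replicate 1, and 0.065 with quantile normalization). Their cause was not tested. The fit did not take the replicate numbers as pairs, because no label pairs them. Deviations of same-numbered samples of the genotypes had correlations of 0.178, -0.096 and 0.017. Those of differently numbered samples ran from -0.283 to 0.26. With 3 samples per genotype these correlations cannot decide whether the numbers pair. Xist, however, was highest in replicate 3 of both genotypes. Its SE fell from 1.171 to 0.212 under the replicate block, where it was called. The labels do not say whether same-numbered samples belong together. Depth limited none of the 10 members, the lowest value being 400.2 for Hmox1.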
